A study of Mus musculus with 4 samples.

Results

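PT-S3-1 is 1 of the 17 clusters into which the authors sorted kidney nuclei, and 1 of the 6 that they named as proximal tubule. It was taken as the column of averages that carries this name in the deposited cluster table and described across all genes, first against PT-S3-2, the other cluster named for the third segment, and then against the remaining 15. The column lists 24468 genes, of which 17043 had at least 1 unique molecular identifier (UMI, a tag that counts each captured RNA molecule once). It held 1334913 UMIs, 3.70% of the 36068714 in the 17 clusters, and ranked 9 by that sum. PT-S3-2 held 3657857 UMIs and 18133 detected genes. The number of nuclei behind each cluster is not known.

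The study profiled RNA of single nuclei from the cortex with outer medulla of male C57BL/6 mice, in 2 Cis9w and 2 CT9w samples. Cis9w mice had received 4 weekly doses of 8 mg/kg cisplatin, a platinum drug that is taken up by and injures the proximal tubule, and their kidneys were collected 9 weeks after the first dose. CT9w mice were untreated. The age of the mice is not stated. The cluster columns are pooled over nuclei of all samples in them, no column belongs to 1 sample or 1 condition, and whether all 4 samples contributed to PT-S3-1 is not stated.

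The proximal tubule reclaims most of the filtrate, and its cells change along its length. The first segment takes up bulk glucose, phosphate and amino acids, the second is rich in organic anion transport, and the third, the straight part that descends into the outer medulla, recovers the remaining solutes and is rich in peroxisomes and in enzymes that metabolise fatty acids and foreign compounds. Many transporters and enzymes of the third segment differ between male and female mice, and this segment is a main site of cisplatin injury.

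All averages are normalised UMIs per nucleus and are not divided by gene length, so levels are compared between clusters and not between genes. With 1 pooled profile per cluster there was no test. Ratios have 95% intervals that cover counting error only, with no spread between animals, and a gene counted as higher or lower at a ratio of averages of at least 2 or at most 0.5 where the mean of both averages reached a floor of 0.02. The cluster was formed by the authors from the same nuclei, so its differences from other clusters describe it and are not independent evidence for it.

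Of 4 genes named for the cluster, Slc7a13, Bcat1, Kap and Ccdc180, 2 were at nearly the same level in both S3 clusters. Slc7a13, an amino acid transporter of the S3 segment that carries cystine and aspartate, averaged 4.80 UMIs per nucleus in PT-S3-1, against 5.08 in PT-S3-2 (ratio 0.944, interval 0.906 to 0.982). It averaged 2.21 in PT-S2/S3 and 0.0567 in PT-S1. Bcat1, the cytosolic branched-chain amino acid aminotransferase, averaged 0.370 in PT-S3-1, against 0.301 in PT-S3-2 (ratio 1.23, 1.05 to 1.43). Outside both clusters its level was 0.0964 in PT-injury/repair, 0.0158 in mixed-2 and lower in each of the other 13. Ccdc180, a coiled-coil protein gene, had 20 UMIs in PT-S3-1 and 26 in PT-S3-2, averages of 0.0301 and 0.0143 (ratio 2.11, 1.12 to 3.93). No UMI of it was seen in PT-S1, PT-S2 or PT-injury/repair, where 3 UMIs would give 0.00111, 0.00141 and 0.00366.

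Kap, the kidney androgen-regulated protein gene of mouse proximal tubule, had the largest ratio of the 4 between the S3 clusters. It averaged 8.03 UMIs per nucleus in PT-S3-1, against 1.74 in PT-S3-2 (ratio 4.61, 4.41 to 4.82). The other 4 proximal tubule clusters lay between 0.811 and 1.58. Its next highest level was outside the tubule clusters, at 6.61 in mixed-2, and it was also above the PT-S3-2 level in EC1 (2.72), EC2 (2.60), Podocyte (2.50) and Immune cells (2.49). Kap RNA was counted in every cluster, and its level in PT-S3-1 was 1.21 times that in mixed-2 (1.13 to 1.31).

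**Figure D1:**
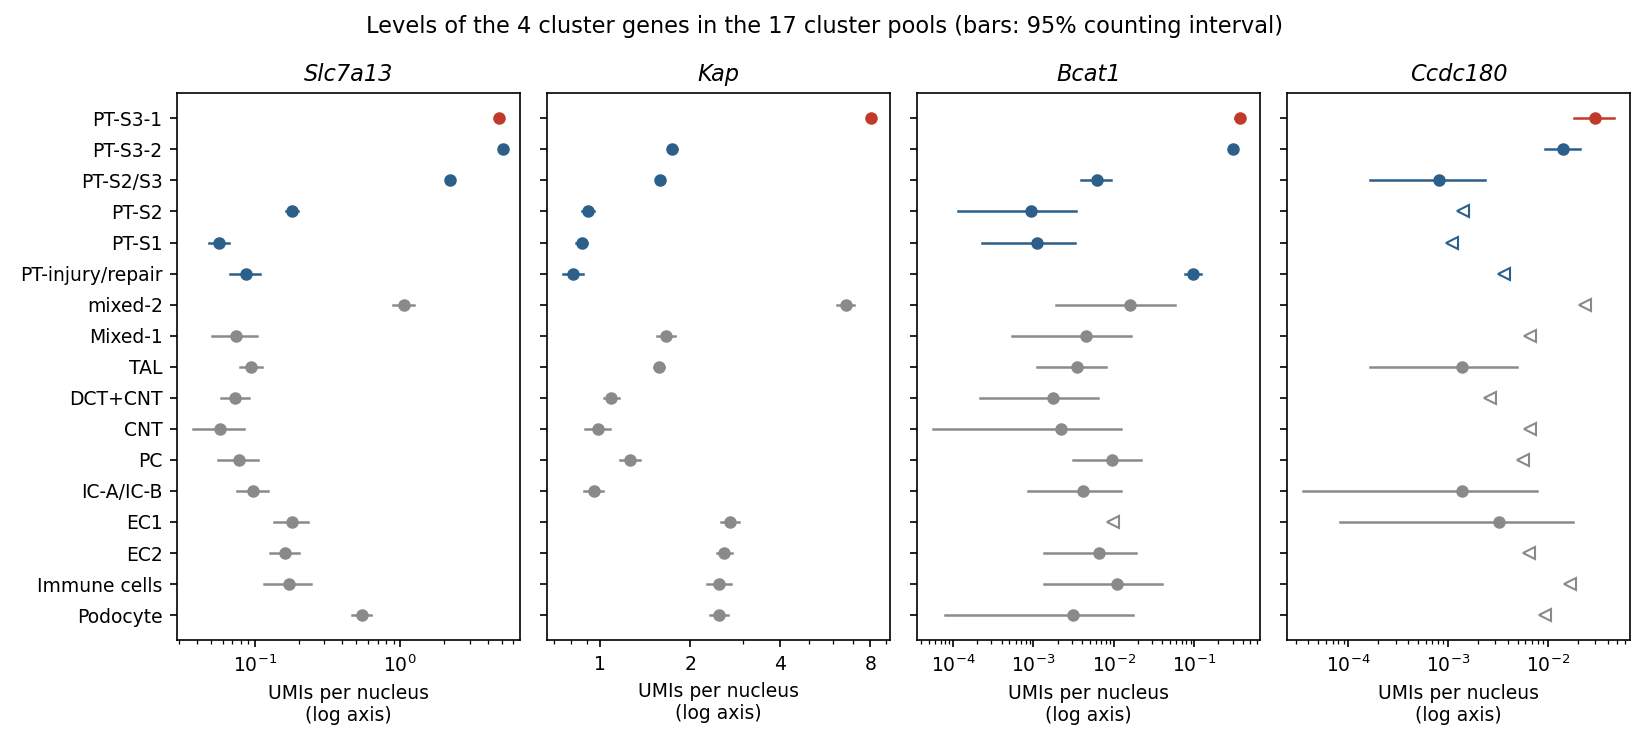
Averages of the 4 genes in each of the 17 cluster pools, in UMIs per nucleus on a log axis, with 95% counting intervals; red marks PT-S3-1, blue the other proximal tubule clusters, grey the rest, and open triangles the level that 3 UMIs would give where none was counted. Slc7a13 was 4.80 in PT-S3-1 and 5.08 in PT-S3-2, while Kap was 8.03 in PT-S3-1 and 6.61 in mixed-2, with every other cluster at or below 2.72.

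The sequences upstream of the start sites are shown because Slc7a13, Kap and Bcat1 were lower in the Cis9w pool described further on. Entries for 3 of the 4 were matched in the RefSeq promoter table (GRCm38.p6), and Slc7a13 was not among them. Each run is the 250 bases before the RefSeq start, with matches to TATAAA on either strand in capitals. Kap lies at chr6:133853668-133853917 on the minus strand, Bcat1 at chr6:145076158-145076407 on the minus strand (the first of 2 starts listed for it), and Ccdc180 at chr4:45890053-45890302 on the plus strand.
Kap: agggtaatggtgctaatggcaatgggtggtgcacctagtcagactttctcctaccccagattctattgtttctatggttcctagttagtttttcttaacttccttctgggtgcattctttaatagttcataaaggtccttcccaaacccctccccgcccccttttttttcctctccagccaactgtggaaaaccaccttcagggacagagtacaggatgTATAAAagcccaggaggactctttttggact
Bcat1: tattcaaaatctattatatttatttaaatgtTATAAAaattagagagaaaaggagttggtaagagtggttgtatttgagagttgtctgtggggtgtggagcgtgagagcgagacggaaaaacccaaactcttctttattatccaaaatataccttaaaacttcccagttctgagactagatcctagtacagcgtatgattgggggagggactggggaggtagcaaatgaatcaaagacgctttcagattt
Ccdc180: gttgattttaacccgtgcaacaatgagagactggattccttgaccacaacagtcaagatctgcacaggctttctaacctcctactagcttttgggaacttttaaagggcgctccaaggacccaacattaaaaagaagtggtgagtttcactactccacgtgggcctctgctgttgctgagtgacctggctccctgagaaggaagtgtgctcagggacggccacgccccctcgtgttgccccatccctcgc
The letters TATAAA begin at -31 from the start of Kap and at -219 from that of Bcat1, and are not in the window of Ccdc180. Of 32851 promoter windows of this length, 12.4% hold them. TGTTCT, core letters of sites of steroid receptors such as the androgen receptor, and GTTAAT, core letters of HNF1 sites, are in none of the 3 windows on either strand, and in 16.1% and 6.43% of all windows.

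The S3 label was checked against 16 genes of the segment, most of which were less than 2-fold apart between the S3 clusters. Their summed level was 26.8 UMIs per nucleus in PT-S3-1, against 32.8 in PT-S3-2, 14.4 in PT-S2/S3, 6.95 in PT-S2 and 4.27 in PT-S1. Slc7a13 and Bcat1, both named for the cluster, are among the 16, so the check is in part fixed by the naming. Slc7a13 supplied 4.80, 5.08, 2.21, 0.181 and 0.0567 of these sums. Bcat1 supplied 0.370, 0.301, 0.00622, 0.000939 and 0.00111. All 16 reached the floor, and 15 were less than 2-fold apart between the S3 clusters, with a median log2 ratio of -0.20. Cyp7b1, a steroid and oxysterol hydroxylase, averaged 4.29 in PT-S3-1, with 4.76 in PT-S3-2 and 0.133 in the PT-S2/S3 pool. Rnf24, a RING finger protein gene, averaged 2.47, against 2.76 and 0.286 in the same clusters. Acsm3, a medium-chain acyl-CoA synthetase, averaged 0.713, against 0.745 and 0.196. Slc22a7, an organic anion transporter, averaged 0.110 in PT-S3-1, against 0.0906 in PT-S3-2 (ratio 1.21, 0.907 to 1.61). The exception was Slc7a12, an amino acid transporter of higher level in female mouse kidney, at 0.526 in PT-S3-1, against 1.98 in PT-S3-2 (ratio 0.266, 0.238 to 0.297).

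Across all genes PT-S3-1 was most like PT-S3-2. Over 10224 genes the Pearson correlation of log2(average + 0.01) was 0.949 with PT-S3-2, 0.932 with PT-S2/S3, 0.898 with PT-S2 and 0.863 with PT-S1. It was 0.824 with mixed-2, above the 0.770 with PT-injury/repair, and between 0.558 and 0.760 with the other 10 clusters. These correlations run over genes, which are not independent, and deeper columns have less counting noise. The share of genes past 2-fold in either direction was 10.1% against PT-S3-2, 13.4% against PT-S2/S3, 18.1% against PT-S2, 21.8% against PT-S1, 24.6% against mixed-2 and 31.2% against PT-injury/repair. It was 32.3% against Podocyte, 32.5% against TAL, 35.4% against DCT+CNT, 36.3% against IC-A/IC-B, 36.8% against CNT, 38.4% against EC1, 38.9% against PC, 41.1% against Mixed-1, 43.2% against Immune cells and 44.7% against EC2.

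The genes that separated PT-S3-1 from PT-S3-2 lay mostly on the higher side. Of 9186 genes at the floor, 821 (8.94%) were at least 2-fold higher in PT-S3-1 and 106 (1.15%) at least 2-fold lower, while the median log2 ratio was 0.03. The interval lay wholly past 2-fold for 432 of the higher and 17 of the lower genes. The floor was reached only through PT-S3-1 by 369 of the higher genes, and only through PT-S3-2 by 45 of the lower, and genes that pass in this way had to differ. Predicted genes made up 21 of the higher and 39 of the lower.

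**Figure D2:**
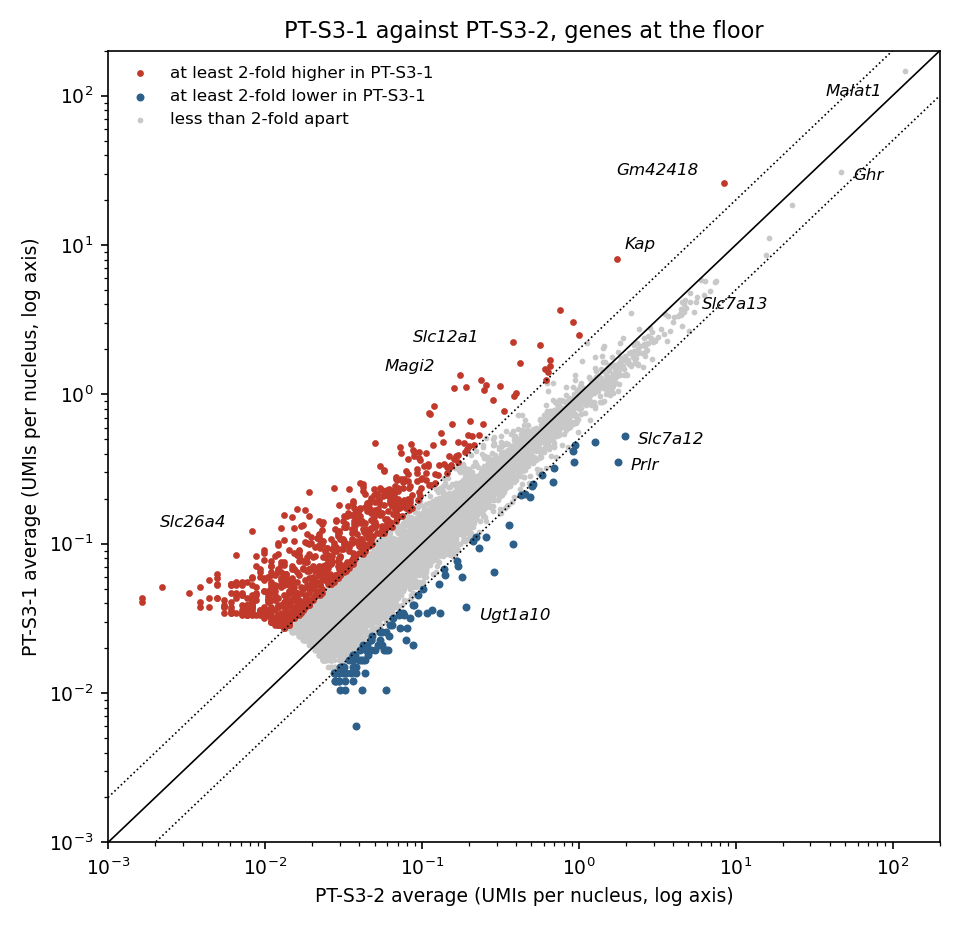
Averages of the 9186 genes at the floor in PT-S3-1 (vertical) and PT-S3-2 (horizontal), in UMIs per nucleus on log axes; the solid line marks equal levels and the dotted lines 2-fold. The 821 red genes are at least 2-fold higher in PT-S3-1 and the 106 blue genes at least 2-fold lower, with Prlr and Slc7a12 the lower genes of highest level among those labelled.

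At the top of the PT-S3-1 profile, levels were less than 2-fold apart, with 2 exceptions among the 12 highest averages. Malat1, a nuclear long noncoding RNA, averaged 145 UMIs per nucleus in PT-S3-1 and 120 in PT-S3-2. Ghr, the growth hormone receptor gene, averaged 30.9 and 46.8 in these clusters (ratio 0.660, 0.650 to 0.670), and Gramd1b, a cholesterol transfer protein gene, 8.53 and 15.6 (ratio 0.546, 0.530 to 0.561). The S3 clusters had the highest levels of Ghr and Gramd1b among the 6 proximal tubule clusters. The exceptions were Kap and Gm42418, a predicted gene that overlaps a ribosomal RNA repeat and so has an uncertain count, at 26.0 in PT-S3-1, against 8.48 in PT-S3-2, while mixed-2 was at 40.5.

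The genes lower in PT-S3-1 included several that are expressed more in female than in male mouse kidney. Of 6 such genes at the floor, 4 were lower and 1 higher, where 1.15% of all genes were lower and 8.94% higher, and Abcc3 reached the floor only through PT-S3-2. The summed level was 1.48 UMIs per nucleus in PT-S3-1, against 4.79 in PT-S3-2. Prlr, the prolactin receptor gene, averaged 0.352 in PT-S3-1, against 1.77 in PT-S3-2 (ratio 0.199, 0.173 to 0.227). Abcc3, an efflux transporter, had 4 UMIs in PT-S3-1 and 69 in PT-S3-2 (ratio 0.159, 0.0421 to 0.425). Cyp4a14, a fatty acid hydroxylase with close paralogs among which reads may be split, had a ratio of 0.240 (0.128 to 0.414). The gene on the other side was Cyp2a4, a steroid hydroxylase nearly identical to Cyp2a5 and so of uncertain count, at 0.132 in PT-S3-1, against 0.0620 in PT-S3-2. The list was chosen with earlier results of these data known, and the mice were all male.

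Other genes among the 15 lowest ratios were transporters, receptors and enzymes. Ugt1a10, a glucuronosyltransferase gene that shares its 3' exons with the other Ugt1a genes, averaged 0.0376 UMIs per nucleus in PT-S3-1, against 0.192 in PT-S3-2 (ratio 0.196, 0.125 to 0.295). Abcb1b, a P-glycoprotein efflux pump, had 7 and 108 UMIs in these clusters (ratio 0.178, 0.0697 to 0.379), and Bbox1, the last enzyme of carnitine synthesis, 13 and 111 (ratio 0.321, 0.166 to 0.572). Tshr, the thyrotropin receptor gene, had a ratio of 0.343 and Htr2b, a serotonin receptor gene, 0.252. Bbox1 and Htr2b averaged 0.0196 and 0.0105 in PT-S3-1, below 0.02, and so passed the floor only through PT-S3-2. Abcb1b did too, since an average of 0.02 rests on 13.3 UMIs in PT-S3-1. PT-S3-1 averages of Tshr, Eva1c, Zcwpw2, Trp63 and Aff2 are not given here. Dscaml1, Eva1c, Zcwpw2, Trp63 and Aff2 lay between 0.310 and 0.349. Hao2, a peroxisomal hydroxy acid oxidase, was the 1 lower gene among 43 of fatty acid oxidation and peroxisomes, at 0.323 in PT-S3-1, against 0.699 in PT-S3-2. Of the 106 lower genes, 45 (42.5%) had their highest level of all 17 clusters in PT-S3-2, against 8.75% of all genes at the floor. These genes were chosen for a higher level in PT-S3-2 than in PT-S3-1, so a larger share was favoured in advance.

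Injury genes past 2-fold lay on both sides. Of 24 listed, 10 reached the floor, 3 were higher in PT-S3-1 and 2 lower, where 8.94% of all genes were higher and 1.15% lower, and 1 of the 10 reached the floor through each cluster alone. The summed level was 1.97 UMIs per nucleus in PT-S3-1, against 2.42 in PT-S3-2 and 10.1 in PT-injury/repair. The lower genes were Cdh6, a cadherin, at 0.0346 in PT-S3-1, against 0.131 in PT-S3-2, and Kcnip4, a potassium channel interacting protein, at 0.0196 and 0.0439. Both were highest in PT-injury/repair, at 1.67 and 1.74. The higher genes were Spp1, which encodes osteopontin, at 0.341 in PT-S3-1, against 0.110 in PT-S3-2, and Clu and Krt8, for clusterin and a keratin, at ratios of 2.45 and 2.08. Krt20, Sox9, Ccl2 and Cdkn1a had no UMI in PT-S3-1.

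Genes of the upstream segments were higher in PT-S3-1. Of 9 S1 genes 7 were at least 2-fold higher and none lower, with a median log2 ratio of 1.99, where 8.94% of all genes were higher. Their summed level was 6.49 UMIs per nucleus in PT-S3-1, against 2.57 in PT-S3-2. These sums were 15.2% and 6.03% of the 42.6 in PT-S1. Slc5a12, a sodium-coupled lactate transporter, averaged 0.842 in PT-S3-1, against 0.119 in PT-S3-2 and 14.7 in PT-S1. Slc34a1, the sodium phosphate cotransporter, averaged 3.06, against 0.916 and 12.4 in the same clusters. Of 7 S2 genes at the floor 4 were higher, among them Cyp2e1, at 0.232 in PT-S3-1, against 0.0346 in PT-S3-2. Among the higher genes of the metabolic lists, Gldc (glycine cleavage), Prodh2 (hydroxyproline breakdown), Gatm (creatine synthesis) and G6pc (glucose release) had ratios of 7.31, 6.93, 5.26 and 3.52, and each was highest of the 17 clusters in PT-S1.

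Markers of cells outside the proximal tubule were likewise higher in PT-S3-1. Over 8 lists of other kidney cells with 85 distinct genes, 79 had a higher average in PT-S3-1 than in PT-S3-2 and 6 a lower one. Of the 42 at the floor, 20 reached it only through PT-S3-1, 37 were at least 2-fold higher and 0 lower. Of all genes at the floor, 8.94% were higher and 1.15% lower. Of the 85, 60 were highest in PT-S3-1 among the 6 proximal tubule clusters. No share of all genes stands beside the counts of 79 and 60, which include genes below the floor, so how far they exceed it is not known. Pvalb, Cd68 and Cd3e were the 3 with no UMI in PT-S3-1.

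The thick ascending limb list summed to 5.40 UMIs per nucleus in PT-S3-1, against 2.10 in PT-S3-2, and to between 1.82 and 2.31 in the other 5 proximal tubule clusters. That was 7.75% of its level in TAL. Slc12a1, the sodium-potassium-chloride cotransporter of that limb, averaged 2.23 in PT-S3-1, against 0.383 in PT-S3-2, and Umod, for uromodulin, 0.751 against 0.110. The distal convoluted and connecting tubule list summed to 4.66, against 1.63, or 4.09% of its level in DCT+CNT, with Slc12a3, the thiazide-sensitive cotransporter, at 1.16 in PT-S3-1, against 0.257 in PT-S3-2. The endothelium list summed to 0.874, against 0.196, or 3.44% of its level in EC1. In PT-injury/repair it summed to 0.795, and the distal list to 2.61. All 10 endothelium members at the floor were higher, beside 8.94% of all genes, and 7 reached it only through PT-S3-1.

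The intercalated cell list had the largest summed ratio of the marker lists, 7.34 (5.76 to 9.41), at 0.375 UMIs per nucleus in PT-S3-1, against 0.0511 in PT-S3-2. All 4 members at the floor were higher, beside 8.94% of all genes, and reached it only through PT-S3-1. In PT-injury/repair the list summed to 0.200. Slc26a4, the chloride-bicarbonate exchanger pendrin, had 81 UMIs in PT-S3-1 and 15 in PT-S3-2 (ratio 14.8, 8.46 to 27.6). Slc4a9, a bicarbonate transporter of the same cells, had 56 and 12 (ratio 12.8, 6.78 to 26.2). The principal cell list summed to 0.304, against 0.100, the stroma list to 0.227, against 0.0725, and the immune list to 0.323, against 0.256. In PT-injury/repair these lists summed to 0.238, 0.292 and 0.286, so the stroma list was higher there than in PT-S3-1. The podocyte list summed to 1.70, against 0.327, but also to 6.31 in PT-S1 through Magi2, which PT-S1 carried at 6.03.

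Leaving out predicted genes, several of the 15 highest ratios belonged to genes that were highest in intercalated or endothelial cells. Atp6v1c2, a proton pump subunit, Syn2 and Btbd11 had ratios of 23.3, 24.7 and 26.5 against 3 or 4 UMIs in PT-S3-2, and all 3 were highest in IC-A/IC-B. Plvap, an endothelial diaphragm protein gene, had a ratio of 12.8 and was highest in EC2. Ugt2b38, a glucuronosyltransferase, had a ratio of 11.6 and was highest in PT-S1. Cpne8, Ncam2, S100a6, Prkd1, Tmtc2, Sgcz and Gpc5 had ratios between 10.1 and 14.2, and none of them was highest in a proximal tubule cluster. S100a6 and Sgcz averaged 0.00494 and 0.0159 in PT-S3-2, below 0.02, and so passed only through PT-S3-1. Atp6v1c2, Syn2 and Btbd11 did too, since an average of 0.02 rests on 36.4 UMIs in PT-S3-2. The same held for Slc26a4 and Slc4a9 above, which are also among the 15. PT-S3-2 averages of the other genes named here are not given. Among the 821 higher genes, 583 (71.0%) were highest outside the proximal tubule clusters, which was near the 69.4% of all genes at the floor.

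**Figure D3:**
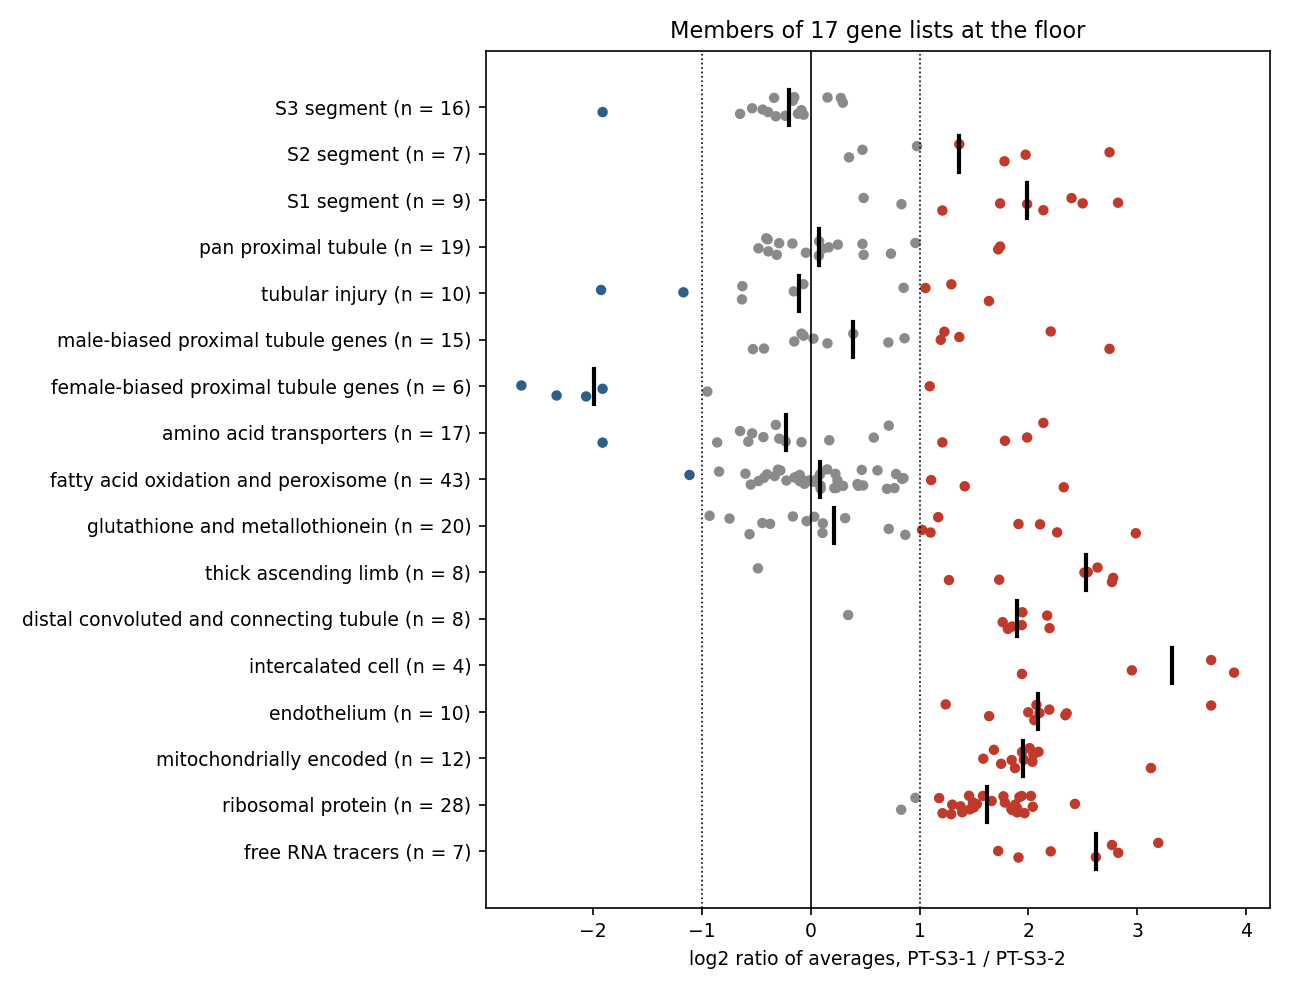
Log2 ratios of PT-S3-1 to PT-S3-2 averages for the members at the floor of 17 gene lists; each point is a gene, red at least 2-fold higher in PT-S3-1 and blue at least 2-fold lower, the black bar is the list median, and n is the number at the floor. The S3 list has its median at -0.20 and the female-biased list at -1.98, while every member of the endothelium, intercalated cell, mitochondrially encoded and free RNA lists is on the higher side. Of these, 7 of 10 endothelium, 4 of 4 intercalated cell, 2 of 12 mitochondrial and 2 of 7 free RNA members reached the floor only through PT-S3-1. Those members had to lie on that side.

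Cytoplasmic and mitochondrial RNA was also higher in PT-S3-1. All 12 mitochondrially encoded genes at the floor were at least 2-fold higher, 2 of them reaching it only through PT-S3-1, and the list summed to 5.05 UMIs per nucleus in PT-S3-1, against 1.33 in PT-S3-2 (summed ratio 3.80, 3.61 to 4.01). The other 5 proximal tubule clusters lay between 1.33 and 1.73, and mixed-2 was at 4.73. Of 28 ribosomal protein genes 26 were at least 2-fold higher. Among all genes at the floor, 8.94% were at least 2-fold higher. The ribosomal protein list summed to 5.28 in PT-S3-1, against 1.73 in PT-S3-2 and 5.05 in mixed-2. Ribosomal protein genes have near-identical pseudogenes, so their single values are uncertain. A list of abundant RNAs that often spill into droplets summed to 11.9 in PT-S3-1, against 2.67 in PT-S3-2 and 11.1 in mixed-2. On it the haemoglobin genes Hbb-bs and Hba-a1 had ratios of 6.14 and 9.13, where Hba-a1 is nearly identical to Hba-a2 and so uncertain. Kap is itself a member of this list. The part of free RNA, mixed droplets or RNA outside the nucleus in the PT-S3-1 values, Kap and the segment genes included, was not tested.

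**Figure D4:**
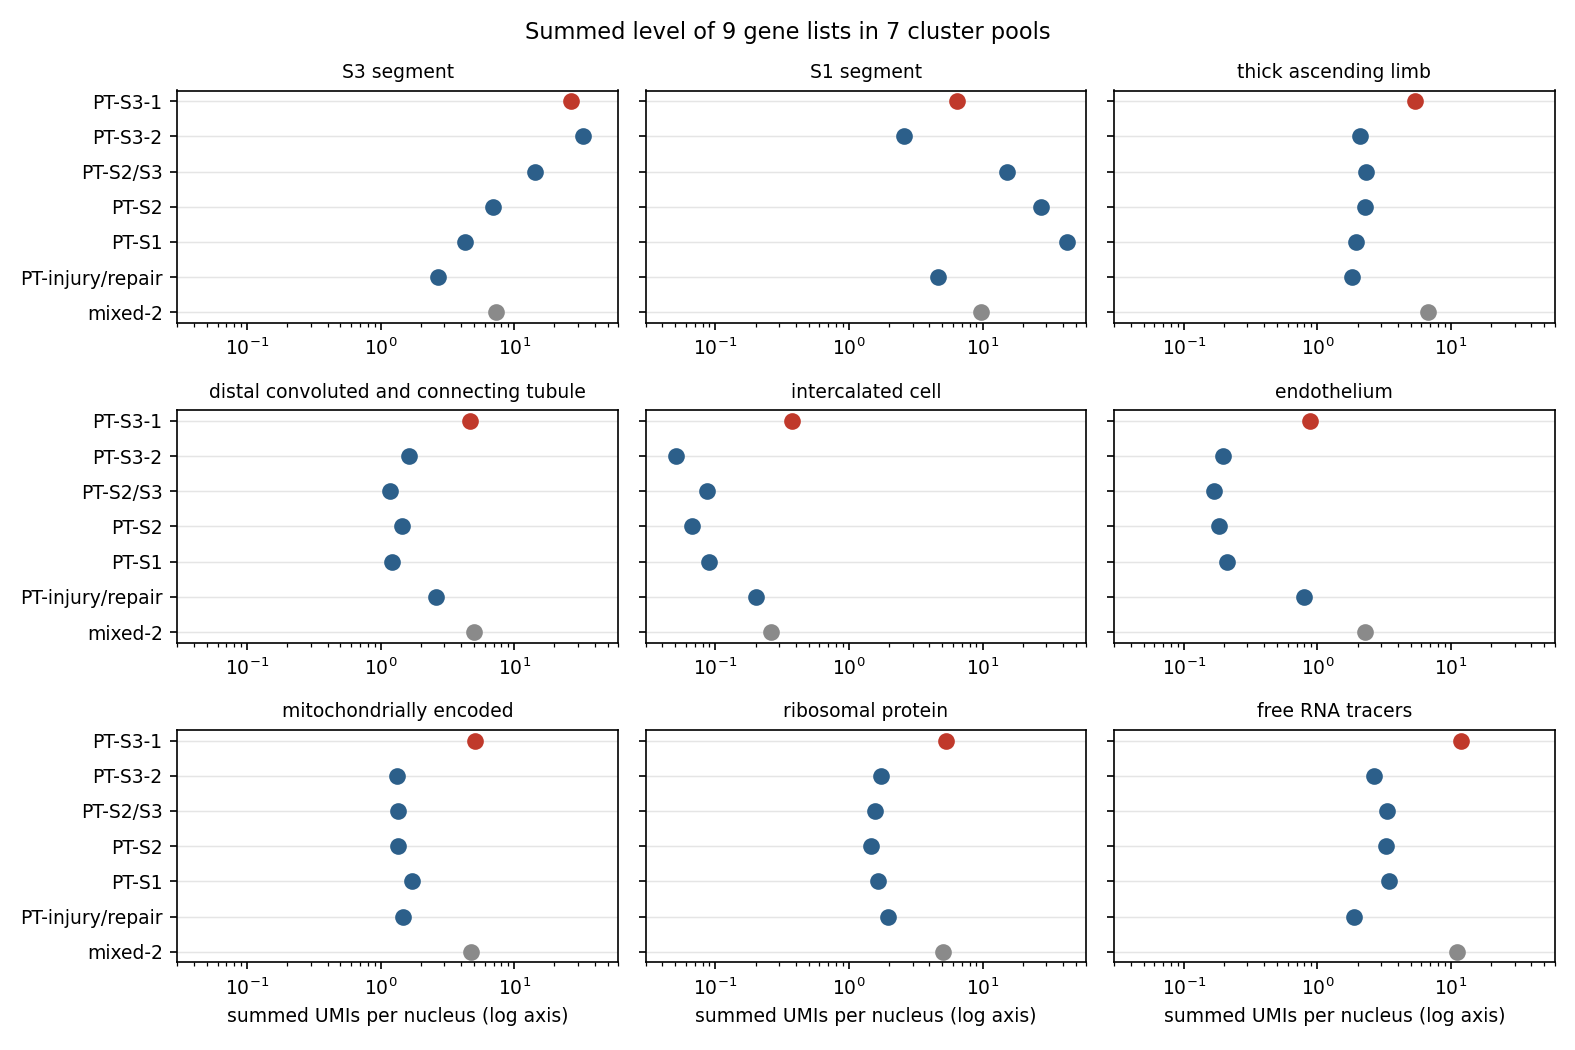
Summed levels of 9 gene lists, in UMIs per nucleus on a log axis, in PT-S3-1 (red), the other 5 proximal tubule clusters (blue) and mixed-2 (grey). In the mitochondrial panel PT-S3-1 stands at 5.05 and mixed-2 at 4.73 while the other 5 clusters lie between 1.33 and 1.73; in the S3 panel PT-S3-1 stands at 26.8, next to PT-S3-2 at 32.8.

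The higher genes were also unusual in the span of the gene on the genome (GENCODE M21). In 10 bins of equal size by span, the share of genes at least 2-fold higher in PT-S3-1 than in PT-S3-2 was 30.1% among the shortest (median 4.47 kb), 2.29% in the fifth bin (28.5 kb) and 19.1% among the longest (247 kb). Of the higher genes in the shortest bin 57.0% were highest outside the proximal tubule, as were 58.1% of all genes there. In the longest bin these shares were 88.0% and 73.1%. Against PT-S1 the shares in the same 3 bins were 38.8%, 8.93% and 23.9%, and against mixed-2 they were 11.7%, 11.3% and 6.73%.

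Few genes were highest in PT-S3-1 by a wide margin. Of 9422 genes with an average of at least 0.02 in PT-S3-1, 710 (7.54%) were higher there than in each of the other 16 clusters, and 7 (0.0743%) were at least 2-fold above the next. The 7 were the predicted genes 9130230N09Rik, AI463229 and Gm6309, and Ndufa11, Xlr3b, Ccdc180 and Apba3. Ndufa11, a subunit of respiratory complex I, averaged 0.0933 in PT-S3-1, against 0.0395 in mixed-2, the next highest (ratio 2.36), and 0.0225 in PT-S3-2. In mixed-2, 3 UMIs would give 0.0237, so the ratio of 2.36 rests on few counts. Rpl41, Sec61b, a subunit of the protein translocation channel, and Cdhr5, a brush border protocadherin, followed at 1.80, 1.87 and 1.74 times the next cluster. The 710 genes were short, with a median span of 9.29 kb, against 35.5 kb for the other genes at that floor.

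In the metabolic groups the shares past 2-fold are read against the 10.1% of all genes past 2-fold in either direction. Of 43 genes of fatty acid oxidation and peroxisomes 39 were within 2-fold, a share near that of all genes, with a median log2 ratio of 0.09 and summed levels of 23.5 UMIs per nucleus in PT-S3-1 and 25.5 in PT-S3-2. Crot, a peroxisomal carnitine acyltransferase, averaged 1.13 and 1.06 in these clusters, against 0.331 in PT-S2/S3. Of 20 genes of branched-chain amino acid metabolism 19 were within 2-fold, Bckdhb, a subunit of the branched-chain keto acid dehydrogenase, being the exception at 3.42. Of 21 cytochrome P450 and flavin monooxygenase genes 3 were higher and 1 lower, and of 32 transcription factors and nuclear receptors 3 were higher (Maf, Esrrb and Zbtb16) and none lower. Of 23 organic ion transporters 3 were higher, Slc22a6, Slc22a8 and Slco1a1, and Abcb1b was lower. Slc22a2, an organic cation transporter known to carry cisplatin, averaged 0.390 in PT-S3-1 and 0.569 in PT-S3-2 (ratio 0.684, 0.595 to 0.785), and Slc47a1, an efflux transporter of organic cations, 2.14 and 2.24 (ratio 0.954, 0.898 to 1.01).

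Transporters of amino acids, sugars and phosphate past 2-fold included several S1 genes, and the counts stand beside 8.94% higher and 1.15% lower of all genes. Of 17 amino acid transporters at the floor 4 were higher, among them Slc6a19, Slc7a8 and Slc7a7, and Slc7a12 was lower. Of 24 transporters of glucose, phosphate and carboxylates 4 were higher, Slc5a12, Slc5a2, Slc9a3 and Slc34a1, and none lower. Of 19 genes shared by the whole proximal tubule 2 were higher, Slc34a1 and Miox (inositol oxygenase), and the sum was 29.2 UMIs per nucleus in PT-S3-1 and 29.7 in PT-S3-2. Lrp2, for the endocytic receptor megalin, averaged 3.55 in PT-S3-1, against 4.67 in PT-S3-2, and Slc27a2, a fatty acid transporter and acyl-CoA synthetase, 4.92, against 6.86.

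In the list of glutathione and metallothionein genes 7 of 20 at the floor were higher and none lower, where 8.94% of all genes were higher. Of the 20, 5 reached the floor only through PT-S3-1, and 4 were higher where both averages had to reach 0.02. Gpx3, the secreted glutathione peroxidase, averaged 2.14 UMIs per nucleus in PT-S3-1, against 0.570 in PT-S3-2 and 2.61 in mixed-2, and Gpx1 0.424, against 0.0884 and 0.450. Mt1, for a metallothionein, had 52 UMIs in PT-S3-1 and 18 in PT-S3-2 (ratio 7.92, 4.55 to 14.4). The glutathione synthesis genes Gclc, Gss and Gclm had ratios of 0.597, 0.678 and 0.773, none past 2-fold. Male-biased genes gave 5 higher and none lower of 15, beside 8.94% and 1.15% of all genes, with Kap supplying 8.03 of the 26.2 summed UMIs per nucleus in PT-S3-1 and 1.74 of the 19.4 in PT-S3-2. Cyp7b1 and Slc7a13, also on that list, had ratios of 0.901 and 0.944.

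The clusters have no column per condition, so cisplatin was followed only in the deposited pools of proximal tubule nuclei from Cis9w and CT9w kidneys, with 8557662 and 5123727 UMIs. Which clusters, and how many nuclei of each, entered these pools is not stated, nor which samples did, so each pool may hold 1 animal or 2. A change in the number of S3 nuclei and a change in RNA per nucleus cannot be told apart. Slc7a13, Kap and Bcat1 were lower in the Cis9w pool, and Ccdc180 was under the floor there. Slc7a13 averaged 1.17 UMIs per nucleus in Cis9w, against 4.07 in CT9w (ratio 0.287, 0.276 to 0.299). Kap averaged 0.866, against 3.22 (ratio 0.269), Bcat1 0.0255, against 0.159 (ratio 0.160, 0.123 to 0.206), and Ccdc180 had 6 UMIs, against 12 (averages 0.00196 and 0.00655, no call). Of the 16 S3 genes 8 were at least 2-fold lower in Cis9w and 1 higher, where 1.88% of the 9902 genes at the pool floor were lower and 2.33% higher. Slc7a13 and Bcat1 are among the 8. The S3 list summed to 13.4 in Cis9w, against 24.8 in CT9w, while the S1 list summed to 30.6 and 27.1.

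The genes that were lower in PT-S3-1 than in PT-S3-2 were higher in the Cis9w pool more often than all genes at both floors, though most were not. Of 8919 genes at the floor in both tables, 151 (1.69%) were at least 2-fold higher in Cis9w and 168 (1.88%) at least 2-fold lower. Of 99 genes lower in PT-S3-1, 22 were higher in Cis9w and 2 lower, shares of 22.2% and 2.02%. Of 715 genes higher in PT-S3-1, 53 (7.41%) were higher in Cis9w and 25 (3.50%) lower. That order turned with the floor, since 5 were higher and 11 lower at a floor of 0.1. Prlr averaged 0.713 UMIs per nucleus in Cis9w, against 0.112 in CT9w (ratio 6.34, 5.49 to 7.35), Slc7a12 0.767, against 0.129 (ratio 5.93, 5.18 to 6.80), and Ugt1a10 0.0918, against 0.00600 (ratio 15.3, 8.42 to 31.0). Of the 13 among the 15 lowest ratios that reached the pool floor, 9 were at least 2-fold higher in Cis9w and 0 lower. Of the injury genes 6 of 9 at both floors were higher and 0 lower. The listed injury genes, at the floor or not, summed to 4.21 in Cis9w, against 2.15 in CT9w.

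The 710 genes highest in PT-S3-1 included 621 at the pool floor, of which 0 were at least 2-fold higher in Cis9w and 25 (4.03%) lower. Of the 8919 genes at the floor in both tables, 1.69% were higher and 1.88% lower. The floors differ, since the 710 were chosen on the PT-S3-1 average alone, and 663 reached the floor on the mean of both S3 averages. The mitochondrial list summed to 1.62 UMIs per nucleus in Cis9w, against 2.43 in CT9w, the ribosomal protein list to 2.11, against 2.38, and the free RNA list to 3.32, against 5.95. Male-biased genes at both floors were at least 2-fold lower in Cis9w for 9 of 15 and higher for none, beside 1.88% and 1.69% of all genes at both floors. The summed level of the listed genes, at the floor or not, was 14.2 in Cis9w, against 30.6 in CT9w. The part of these quality lists, or of the numbers of nuclei, in the pool ratios was not tested.

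**Figure D5:**
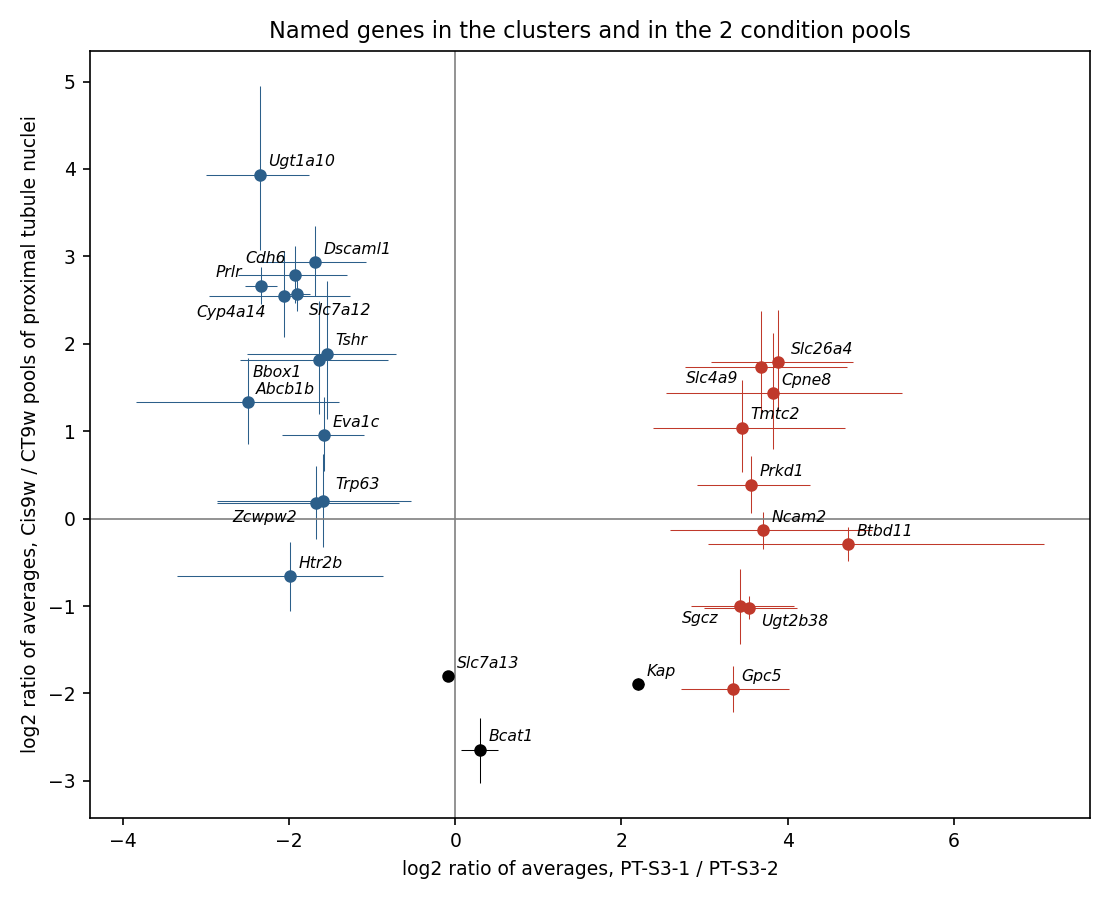
Log2 ratio of PT-S3-1 to PT-S3-2 averages (horizontal) and of Cis9w to CT9w averages in the pools of proximal tubule nuclei (vertical), with 95% counting intervals, for genes named in the text that reached both floors; black marks genes named for the cluster, red and blue genes among the 15 highest and 15 lowest cluster ratios. Blue genes such as Prlr, Slc7a12 and Ugt1a10 lie in the upper left, at Cis9w to CT9w ratios of 6.34, 5.93 and 15.3, and Slc7a13, Kap and Bcat1 lie below 0.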

How the data were processed

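Nuclei of 2 Cis9w and 2 CT9w kidney samples were isolated from strained homogenates and captured in droplets with a 10x 3' kit, following the labels' protocols. The submitters' processing notes list Cell Ranger 5.0.1 and the build mm10. How nuclei were filtered and clustered, and how doublets and free RNA were handled, is not given in these sources. The deposited averages are a size-factor-scaled UMI signal per nucleus, pooled over nuclei by the authors and scaled so that each column of the cluster table sums to 2008. The tables were scaled separately, so levels are not compared between them. Deposited fold changes and p-values were not used.

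Values were whole multiples of 1 step per column within 0.1 UMI for 100% of values in the cluster table and 99.9953% in the pools, which gave UMI sums. The size factors summed to 665 in PT-S3-1 and 1822 in PT-S3-2, so an average of 0.02 rests on 13.3 UMIs in PT-S3-1. Ratios have 95% Clopper-Pearson intervals, which cover counting error only. No count test could be run, since each cluster or condition has 1 pooled column and no column carries a sample. The recovery and intervals were tested on simulated data (Python 3.11.15, NumPy 2.4.6, SciPy 1.17.1, pandas 2.3.3).

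Of 36 gene lists, 15 hold cell type markers. The members and lists were chosen with earlier results of these data known. Named genes are those named for the cluster, the 15 highest and 15 lowest ratios without predicted genes, the 12 furthest above the next cluster, the 12 highest averages, and up to 4 per list on each side with its highest member; other genes named were chosen after their values were seen, and some that the rule names are not reported here. The alternatives tried were other floors, ratios, scalings, pseudocounts and Spearman's coefficient.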

Additional observations from a re-analysis of the deposited data

How the results depend on the processing

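Against the 821 genes higher and 106 lower in PT-S3-1 than in PT-S3-2, a ratio of at least 4 gave 254 and 6, an interval wholly past 2-fold 432 and 17, a floor of 0.005 1877 and 381, a floor of 0.1 208 and 27, and, chosen after seeing the data, both averages at 0.02 452 and 61. Centring on the median gave 792 and 125, and scaling without the 20 highest genes of each cluster 817 and 106. Lists with a median at least 2-fold higher numbered 12, and 1 was lower, where a 4-fold threshold gave 6 and 0. The number of genes at least 2-fold above every other cluster, 7, became 17 at a floor of 0.005 and 0 at 0.1, 55 at 1.5-fold and 0 at 4-fold, and the 710 highest became 307 at a floor of 0.1. PT-S3-2 was the most alike cluster under each of the 5 alternatives. In the pools, genes higher in PT-S3-1 that were higher or lower in Cis9w (53 and 25) became 5 and 5 at 4-fold and 5 and 11 at a floor of 0.1, and genes lower in PT-S3-1 (22 and 2) became 9 and 0, and 7 and 1. The cause was not tested beyond the stricter or looser limit itself. For 34 single genes, all 68 values under the 2 scalings stayed inside the counting interval.

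Depth limits genes near the floor, where 3 UMIs are 0.00451 in PT-S3-1 and 0.0237 in mixed-2. Leaving out a replicate was not run, since no column carries a sample. No paired analysis was possible because the columns carry no replicate number.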
